A study of Mus musculus with 15 samples.

Results

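The genes described are 10 regulators and readouts of the balance between epithelial and mesenchymal states, chosen by name and found by Ensembl identifier among the 54418 genes of the count table. They are Twist1, Zeb1, Snai1 and Snai2, the mesenchymal effectors Vim and Cald1, the epithelial cadherin Cdh1, and the epithelial regulators Ovol1, Esrp2 and Grhl2. They were measured by RNA-seq in 15 libraries of mouse colon cancer organoids, which are tumour epithelial cells kept as 3-dimensional cultures. All carried the genotype written AKP, whose alleles the labels do not spell out, and all had been grown in C57Bl6 recipient mice, whose ages the labels do not give. Organoids from liver metastases were transplanted into the colon of immunocompetent mice again over 3 rounds, with primary tumour organoids carried along as controls. The 5 groups, of 3 libraries each, were metastasis organoids of rounds 1, 2 and 3 (Met1, Met2, Met3) and primary tumour organoids of rounds 2 and 3 (Primary2, Primary3). The labels do not say whether replicates (rep) were separate mice, lines or cultures, and the p-values therefore reflect nothing beyond the variation among these libraries, part of which may be technical.

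Epithelial-mesenchymal transition (EMT) is the loss of cell junctions and polarity and the gain of motility. Transcription factors of the Twist, Zeb and Snai families drive it, and they are best known for repressing Cdh1, the E-cadherin of adherens junctions, through E-box sequences. Ovol and Grainyhead-like factors and the Esrp splicing regulators hold cells in the epithelial state, Esrp proteins by favouring epithelial exon choices. In tumours the states can mix, so that single EMT factors and epithelial genes are found in the same cells.

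Total counts ran from 14122203 to 21306543 per library, and 3 counts in a library equal 0.137 to 0.22 CPM (counts scaled to library size with TMM factors). The 10 epithelial markers summed to 11150 to 14150 CPM in Met1, 14910 and 16070 CPM in Met2 rep 2 and rep 3, 12520 to 16720 CPM in Met3, 5895 to 8290 CPM in Primary2 and 7105 to 8060 CPM in Primary3, with 5334 CPM in Met2 rep 1. The sum was thus higher in all metastasis libraries but that one than in every primary library, and its part in the changes below was not tested. It rested largely on keratins, with Krt19 at up to 6905 CPM and Krt8 at up to 4264 CPM. Epcam was highest in Primary3 rep 3 (1058 CPM), and Cdx1 reached at most 0.274 CPM. In the test described below, 3 of 9 markers tested were higher in Met2 and Met3 than in the primaries and 0 lower. Over all genes these shares were 14.3% and 16.1%. The 10 fibroblast markers summed to at most 5.16 CPM, with Lum and Dpt at 0 everywhere. Endothelial markers summed to 0.371 to 10.8 CPM with Kdr and Emcn at 0, leukocyte markers to 6.87 to 29.3 CPM with Adgre1, Lyz2 and Tyrobp at 0, hepatocyte markers to 0.0524 to 29.8 CPM, and smooth muscle markers to 0 to 1.51 CPM with Des at 0. Met2 rep 1 stood apart. It lay at -42.4 on the third principal component, where the others lay between -6.2 and 15.5, and it held the highest fibroblast sum and the lowest epithelial one. Primary3 rep 3 lay within its group there, at -0.0963, and the Primary3 libraries correlated at 0.977 to 0.985, but it held the highest levels of Vim and of a few mesenchymal genes given with it. In bulk libraries, fewer cells of a type and less RNA per cell cannot be told apart.

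Genes were tested with edgeR's quasi-likelihood test, with Benjamini-Hochberg adjustment over 14925 genes, and a gene was called where its adjusted p was under 0.05. Changes are given as log2 folds, and every adjusted p below is from this test unless DESeq2 is named. Zeb1 and Snai2 did not pass the filter on low counts and were not tested. Between Met2 and Met3 together and Primary2 and Primary3 together, 4 of the 8 tested genes were called, 2 higher and 2 lower, against 30.4% of all genes tested (14.3% higher and 16.1% lower). Twist1 and Ovol1 rose, and Cald1 and Cdh1 fell. The changes of Vim, Snai1, Esrp2 and Grhl2 were not called. Libraries of metastasis and primary did not overlap for 3 of the 8, Twist1, Ovol1 and Cald1, against 12.2% of all genes tested. The median change of the 8 was 0.22, beside 0.01 over all genes.

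**Figure D1:**
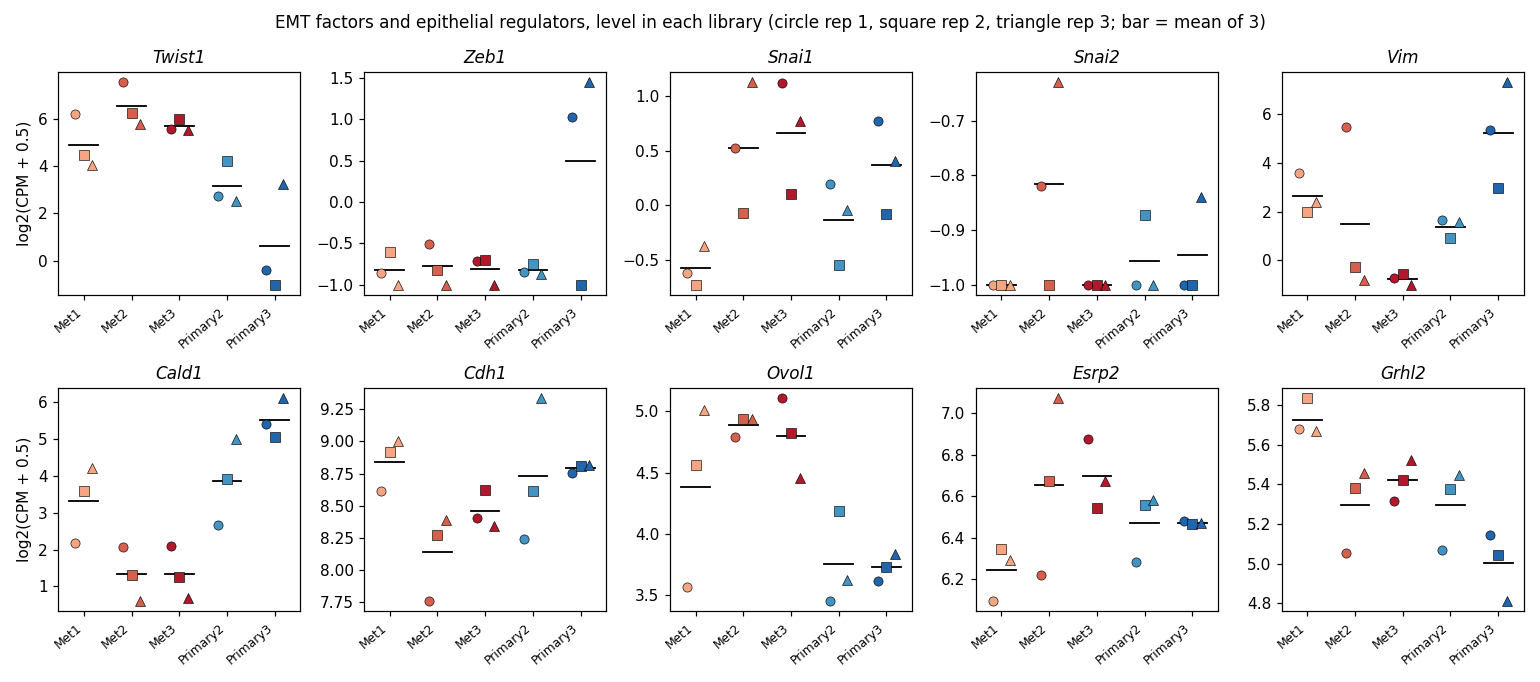
Level of each of the 10 genes in each of the 15 libraries, as log2(CPM + 0.5) on axes of their own range, with symbols for replicates and a bar for the mean of 3. Twist1 and Ovol1 lie higher in Met2 and Met3 than in every primary library and Cald1 lower, while Snai2 stays near the lowest possible value everywhere and Zeb1 outside Primary3.

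Per kilobase of exon, the mean level over all libraries was highest for Cdh1, at 87.0 CPM per kb, followed by Twist1 at 25.3 and Esrp2 at 21.2 CPM per kb. Twist1 owed that place to the metastases, since it averaged 47.9 CPM per kb in Met2 and Met3 and 3.96 CPM per kb in the primaries, where Esrp2 averaged 20.4, Vim 7.47 and Grhl2 4.11 CPM per kb. The Vim mean in the primaries rested on Primary3 rep 1 (8.375 CPM per kb) and rep 3 (33.55 CPM per kb). The other primary libraries held 0.293 to 1.56 CPM per kb of Vim. Over all libraries, Ovol1 (6.03), Grhl2 (4.76), Vim (3.90) and Cald1 (1.34 CPM per kb) followed. Snai1 averaged 0.446, Zeb1 0.0304 and Snai2 0.0105 CPM per kb over all libraries. In Primary3, Twist1 stood at 0.165, 0 and 5.46 CPM per kb beside 0.748, 0.277 and 0.508 CPM per kb for Snai1, so it was the lower of both in rep 1 and rep 2.

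Twist1 encodes a basic helix-loop-helix factor that can drive EMT in tumours (ENSMUSG00000035799, GRCm38 chromosome 12, 33957671 to 33959829, plus strand). It stood at 73.5, 21.2 and 16.1 CPM in the 3 Met1 libraries, at 186, 75.7 and 53.4 CPM in Met2 and at 46.4, 61.7 and 45.6 CPM in Met3. The primaries held 6.23, 18 and 5.26 CPM in Primary2 and 0.269, 0 and 8.89 CPM in Primary3. Every Met2 and Met3 library was above every primary library, and Met1 overlapped Primary2 only through its rep 3 at 16.1 CPM. Met2 and Met3 averaged 78.0 ± 53.8 CPM and the primaries 6.44 ± 6.64 CPM (SD, n = 6 each). The log2 change was 3.73 (SE 0.78, 95% interval 2.04 to 5.41, adjusted p = 0.0037). Leaving out Primary3 rep 3, the primary library of round 3 with most Twist1, moved it to 5.97 (adjusted p = 0.000493). It stayed called under all 18 alternatives, with adjusted p between 0.000315 and 0.0128.

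The order of mean levels was Met2, Met3, Met1, Primary2 and Primary3, and every neighbouring pair overlapped in its libraries. Within round 2 the change of Twist1 was 3.41 (SE 1.07), just outside the threshold at an adjusted p of 0.0549. All 3 Met2 libraries were above all 3 Primary2 libraries, and 4424 of all 14925 genes tested showed no overlap there. Within round 3 the change of Twist1 was 4.04 (SE 1.13, adjusted p = 0.0266). That call ended without Met3 rep 1, Met3 rep 2, Primary3 rep 1 or Primary3 rep 2 (changes of 3.47 to 4.15, adjusted p = 0.0546 to 0.0762), and without Primary3 rep 3 the change was 8.53 (adjusted p = 0.00498). The Twist1 paralog Twist2 had 1 count in all 15 libraries. Over the 15 libraries, which share their groups and their scaling, the log2 levels most like those of Twist1 were those of Zfp938 (Pearson r = 0.94) and Mid2 (r = 0.916).

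The promoter of Twist1 is shown because this gene had the largest rise of the 8, and those of the effectors Cald1 and Vim follow where they are described. The windows come from RefSeq on GRCm38.p6 and hold 250 bases before and 50 after a start site, which the table gave for 4 of the 10 genes. Capitals mark E-boxes, CANNTG, searched on both strands. The Twist1 window holds none, nor the core CACCTG or its reverse complement CAGGTG, which overlap with CANNTG, nor the Grainyhead sequence AACCGGTT. Among 32851 promoter windows of this length, 72.3% hold CANNTG, 20.2% hold CACCTG or CAGGTG and 0.146% hold AACCGGTT.
Twist1 (chr12:33957421-33957720, plus strand): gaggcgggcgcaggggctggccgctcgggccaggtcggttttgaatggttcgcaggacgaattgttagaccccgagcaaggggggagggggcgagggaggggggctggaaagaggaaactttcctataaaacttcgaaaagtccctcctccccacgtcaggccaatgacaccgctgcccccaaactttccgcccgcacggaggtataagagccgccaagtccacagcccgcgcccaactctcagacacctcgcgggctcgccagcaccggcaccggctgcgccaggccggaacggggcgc

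Snai1, Snai2 and Zeb1 were all low. Snai1, a zinc-finger repressor of Cdh1 (ENSMUSG00000042821, chromosome 2, 167538195 to 167542814, plus strand), stood at 0.150, 0.106 and 0.274 CPM in Met1, at 0.938, 0.451 and 1.69 CPM in Met2 and at 1.67, 0.576 and 1.204 CPM in Met3. The primaries held 0.644, 0.185 and 0.474 CPM in Primary2 and 1.21, 0.449 and 0.824 CPM in Primary3. Snai1 had 11 counts over the 3 libraries of Met1, 44 in Met2 and 64 in Met3, and no library of Met2 or Met3 was as low as any of Met1. Against the primaries, Met2 and Met3 together differed by 0.85 (SE 0.44, 95% interval -0.10 to 1.81, adjusted p = 0.162), with overlapping libraries. The Snai1 promoter window holds 1 E-box, a CACCTG core. Its closest levels over the 15 libraries were those of Prkch (r = 0.877) and Tchp (r = 0.842).

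Snai2, the second Snai repressor (ENSMUSG00000022676, chromosome 16, 14705852 to 14709385, plus strand), had 5 counts in all, 3 in Met2 and 1 each in Primary2 and Primary3, and was at 0 in 11 libraries. Zeb1, a zinc-finger homeodomain repressor of epithelial genes (ENSMUSG00000024238, chromosome 18, 5591860 to 5775467, plus strand), had 77 counts in all. Of these 61 lay in Primary3, in rep 1 (1.55 CPM) and rep 3 (2.24 CPM), with 0 in Primary3 rep 2 and at most 0.201 CPM in each of the other 12 libraries. The paralog Zeb2 was at 2.77 CPM in Primary3 rep 3, at 2.01 CPM in Met2 rep 1 and at most 0.135 CPM elsewhere. Zeb1 was thus above the level of 3 counts in a pair of primary libraries of round 3 and barely detected in metastasis organoids. With no filter on low counts, the Zeb1 change of Met3 against Primary3 was -3.996 and missed the threshold (adjusted p = 0.051). Leaving out Primary3 rep 2, the library at 0, let Zeb1 pass the filter and gave -4.57 (adjusted p = 0.0205). That fit removed the Primary3 library that went against the difference, so its call adds no support. Zeb1 also passed without Met3 rep 1, rep 2 or rep 3. It was then not called (changes of -4.40 to -3.42, adjusted p = 0.109 to 0.133).

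Cald1 encodes caldesmon, an actin and tropomyosin binding protein of contractile and mesenchymal cells (ENSMUSG00000029761, chromosome 6, 34598500 to 34775473, plus strand). Cald1 was low in metastases of later rounds. Met1 held 4.003, 11.49 and 18.1 CPM, Met2 3.68, 1.996 and 1.03 CPM and Met3 3.77, 1.90 and 1.10 CPM. Primary2 held 5.90, 14.7 and 31.7 CPM and Primary3 41.9, 32.5 and 68.4 CPM. All 6 later metastasis libraries were below all 6 primary libraries. The means were 2.25 ± 1.21 CPM in Met2 and Met3 and 32.5 ± 21.9 CPM in the primaries (SD, n = 6 each). The log2 change was -3.68 (SE 0.52, 95% interval -4.81 to -2.54, adjusted p = 0.000407), and it stayed called under all 18 alternatives, at adjusted p of 0.00184 or below.

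Cald1 was lower within each round, with a change of -2.96 in Met2 against Primary2 (SE 0.73, adjusted p = 0.0225) and of -4.40 in Met3 against Primary3 (SE 0.76, adjusted p = 0.00298). The round 2 call ended without Met2 rep 2, Met2 rep 3 or Primary2 rep 3 (changes of -2.85 to -2.20, adjusted p = 0.0606 to 0.0888). The round 3 call held in all 11 alternatives. By mean level the order was Primary3, Primary2, Met1, Met3 and Met2. Primary3 and Primary2 did not overlap, nor did Met1 and Met3, while Primary2 overlapped with Met1 and Met3 with Met2. Of all 14925 genes tested, 2498 did not overlap between Primary3 and Primary2 and 6645 between Met3 and Met1. The genes of closest level were Cytip (r = 0.964) and Smtn, which encodes the smooth muscle protein smoothelin (r = 0.952). RefSeq gives Cald1 a pair of starts. The upstream window holds 1 E-box and the downstream window 2, none of them a CACCTG or CAGGTG core.
Cald1, upstream start (chr6:34598254-34598553, plus strand): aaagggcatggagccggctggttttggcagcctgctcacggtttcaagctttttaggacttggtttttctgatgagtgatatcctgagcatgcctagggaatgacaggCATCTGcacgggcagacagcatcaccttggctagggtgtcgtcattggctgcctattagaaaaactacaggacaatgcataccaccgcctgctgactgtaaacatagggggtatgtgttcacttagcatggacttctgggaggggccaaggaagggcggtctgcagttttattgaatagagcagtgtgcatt
Cald1, downstream start (chr6:34709194-34709493, plus strand): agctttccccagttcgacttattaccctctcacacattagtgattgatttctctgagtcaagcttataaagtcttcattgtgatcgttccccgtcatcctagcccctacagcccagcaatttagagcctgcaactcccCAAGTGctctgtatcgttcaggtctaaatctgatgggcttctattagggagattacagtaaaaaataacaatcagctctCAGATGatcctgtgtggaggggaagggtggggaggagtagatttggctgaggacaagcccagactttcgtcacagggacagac

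Vim encodes vimentin, the intermediate filament protein of mesenchymal cells (ENSMUSG00000026728, chromosome 2, 13573927 to 13582826, plus strand). It stood at 11.4, 3.50 and 4.75 CPM in Met1, at 44.3, 0.322 and 0.0734 CPM in Met2 and at 0.108, 0.173 and 0 CPM in Met3. Primary2 held 2.63, 1.39 and 2.46 CPM and Primary3 39.7, 7.38 and 159 CPM. Of the 6 libraries of Met2 and Met3, 5 lay below every primary library, the exception being Met2 rep 1. Primary3 rep 3 was the highest of all. Met2 and Met3 averaged 7.50 ± 18.04 CPM and the primaries 35.5 ± 62.3 CPM (SD, n = 6 each), with a log2 change of -3.33 (SE 1.32, 95% interval -6.19 to -0.48) that was not called (adjusted p = 0.0721).

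The call for Vim depended on Met2 rep 1 and on the method. Without Met2 rep 1 the change was -6.37 (adjusted p = 0.000495), without Primary3 rep 3 it was -2.56 (adjusted p = 0.158), and without both it was -5.61 (adjusted p = 0.000466). With all libraries kept, Vim was called with DESeq2 (adjusted p = 0.0156) and with no filter on low counts (adjusted p = 0.040). It was also called with the replicate number as a block (adjusted p = 0.0486). Met2 rep 1 also held the highest levels of Twist1 (186 CPM), of the EMT factor Tcf4 (321 CPM) and of N-cadherin, Cdh2 (6.96 CPM), and its 10 fibroblast markers summed to 5.16 CPM, against 0 to 0.865 CPM in the other 14 libraries. Primary3 rep 3 held the highest levels of Axl (18.5 CPM), a receptor kinase often raised in EMT, of the matrix protein gene Sparc (10.5 CPM), and of S100a4 (185 CPM), while its fibroblast sum was 0.765 CPM. Its Epcam level, at 1058 CPM, and its Cdh1 level, at 450.1 CPM, lay beside those of Primary3 rep 2 (1053 and 447 CPM). The part of these markers in the level of Vim was not tested. Tcf4, Cdh2, Sparc and S100a4 were chosen here after their values were seen. Of 16 listed mesenchymal effectors with a count, Met2 rep 1 was highest in 3 and Primary3 rep 3 in 4. Met2 rep 1 also held the highest levels of the epithelial genes Foxa2 (23.8 CPM) and St14 (181 CPM).

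**Figure D2:**
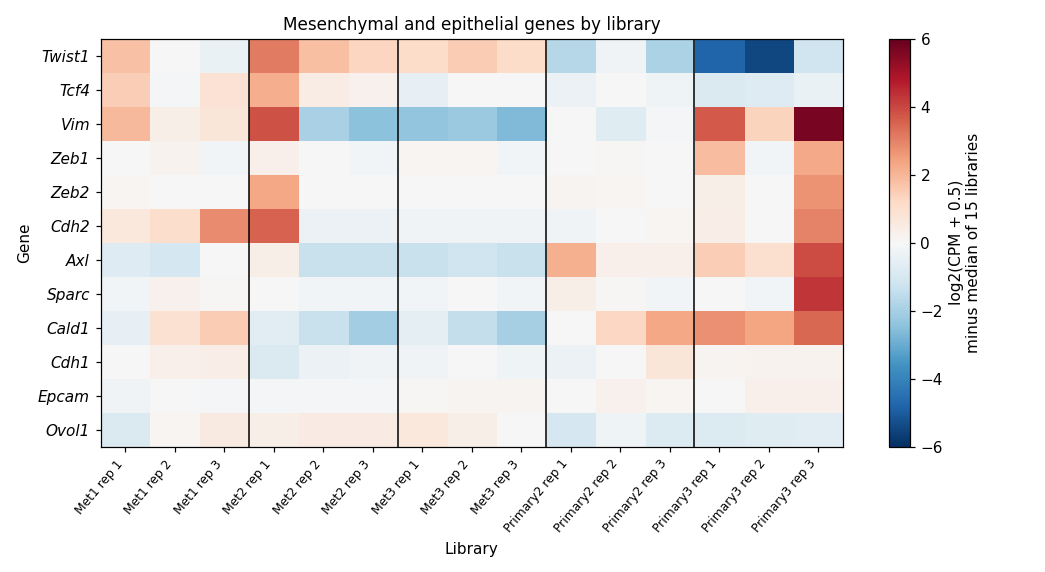
Level of 12 mesenchymal and epithelial genes (rows) in each library (columns, groups divided by lines), as log2(CPM + 0.5) minus the gene's median over the 15 libraries. Met2 rep 1 shows Twist1, Tcf4, Vim, Zeb2 and Cdh2 above the other metastasis libraries of its round, and Primary3 rep 3 shows Vim, Zeb2, Axl, Sparc and Cdh2 above the other primary libraries.

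Within round 3, Vim was lower in Met3 than in Primary3 with a fitted change of -9.45 (SE 2.22, adjusted p = 0.0124), on 5 counts in Met3 and 3409 in Primary3. This call ended without Met3 rep 1 (-9.54, adjusted p = 0.0537). Without Met3 rep 2 the change was -10.16 (adjusted p = 0.045) and without Primary3 rep 3 it was -7.90 (adjusted p = 0.0402). Within round 2 the change was 2.79 (SE 1.498, adjusted p = 0.24), and only Met2 rep 1 lay above the 3 Primary2 libraries. The Vim window below holds no E-box and no AACCGGTT. The nearest levels were those of Nbdy (r = 0.877) and Nrn1 (r = 0.874).
Vim (chr2:13574061-13574360, plus strand): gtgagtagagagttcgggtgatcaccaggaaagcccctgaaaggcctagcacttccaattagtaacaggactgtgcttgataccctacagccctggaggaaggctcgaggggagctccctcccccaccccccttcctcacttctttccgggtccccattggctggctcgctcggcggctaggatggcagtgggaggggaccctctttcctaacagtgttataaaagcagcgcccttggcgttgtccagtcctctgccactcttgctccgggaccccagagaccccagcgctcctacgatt

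Cdh1 encodes E-cadherin, the adhesion receptor that EMT factors repress (ENSMUSG00000000303, chromosome 8, 106603351 to 106670246, plus strand). Per kilobase it was the most abundant of the 10 genes in 4 of the 5 groups, and in Met2 it averaged 62.5 CPM per kb beside 64.4 CPM per kb for Twist1. That order in Met2 rested on rep 1, with Twist1 at 114 and Cdh1 at 47.15 CPM per kb. Twist1 was below Cdh1 in Met2 rep 2 (46.5 and 67.3 CPM per kb) and rep 3 (32.8 and 72.9 CPM per kb). Cdh1 stood at 391, 483 and 512 CPM in Met1, at 216, 308 and 334 CPM in Met2 and at 339, 394 and 323 CPM in Met3. Primary2 held 302, 390.2 and 646.5 CPM and Primary3 431.5, 447 and 450.1 CPM. Met2 and Met3 averaged 319 ± 58.5 CPM and the primaries 445 ± 113 CPM (SD, n = 6 each). The log2 change was -0.49 (SE 0.17, 95% interval -0.85 to -0.12), close to the threshold at an adjusted p of 0.0435, and the metastasis and primary libraries overlapped. It was called in 6 of 18 alternatives, with changes of -0.60 to -0.30 and adjusted p of 0.0127 to 0.141.

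The Cdh1 call ended when any 1 of 10 libraries was left out, which were all but Primary2 rep 1 and Primary2 rep 2. The adjusted p was then 0.0506 to 0.107, and the change nearest 0, -0.30, came without Primary2 rep 3. Neither round alone gave a call, with -0.64 in Met2 against Primary2 (adjusted p = 0.0926) and -0.33 in Met3 against Primary3 (adjusted p = 0.343). In round 3 the libraries did not overlap, as was so for 6621 of all 14925 genes tested. Without Primary2 rep 1 the round 2 change was -0.86 (adjusted p = 0.0464). Met1 had the highest mean, 462 CPM, followed by Primary2, Primary3, Met3 and Met2, and in that order only Primary3 and Met3 did not overlap. The closest levels were those of Cd2ap (r = 0.934) and Sh3d19 (r = 0.92).

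Ovol1 encodes a zinc-finger repressor that holds cells epithelial (ENSMUSG00000024922, chromosome 19, 5549136 to 5560646, minus strand). It stood at 11.4, 23.1 and 31.8 CPM in Met1, at 27.3, 30.1 and 30.1 CPM in Met2 and at 34.0, 27.8 and 21.5 CPM in Met3. Primary2 held 10.5, 17.7 and 11.8 CPM and Primary3 11.8, 12.8 and 13.8 CPM. All 6 later metastasis libraries were above all 6 primary libraries. The means were 28.5 ± 4.15 CPM in Met2 and Met3 and 13.1 ± 2.54 CPM in the primaries (SD, n = 6 each). The log2 change was 1.12 (SE 0.22, 95% interval 0.65 to 1.60, adjusted p = 0.0026), a 2.18-fold difference that stayed called under all 18 alternatives (adjusted p at most 0.00834).

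Ovol1 was higher within both rounds, with a change of 1.13 in Met2 against Primary2 (SE 0.31, adjusted p = 0.0355) and of 1.12 in Met3 against Primary3 (SE 0.31, adjusted p = 0.0258). The 95% interval of their difference was -0.95 to 0.94. The round 2 call ended without Met2 rep 2, Met2 rep 3, Primary2 rep 1 or Primary2 rep 3 (changes of 0.98 to 1.14, adjusted p = 0.0644 to 0.116). The round 3 call ended without Met3 rep 1, Met3 rep 2 or any 1 of the Primary3 libraries (changes of 0.99 to 1.18, adjusted p = 0.0605 to 0.0867). The paralog Ovol2, also a repressor of mesenchymal genes, averaged 8.72 ± 3.99 CPM in Met2 and Met3 and 8.28 ± 1.32 CPM in the primaries (SD, n = 6 each) and was not called (0.04, SE 0.29, adjusted p = 0.934). The genes closest to Ovol1 in level were Oaz1 (r = 0.903) and Smdt1 (r = 0.891).

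Esrp2, an RNA-binding protein of epithelial splicing (ENSMUSG00000084128, chromosome 8, 106130319 to 106136974, minus strand), stood at 67.8 to 80.8 CPM in Met1, 74.1 to 134 CPM in Met2 and 92.8 to 117 CPM in Met3. Primary2 held 77.2 to 95.2 CPM and Primary3 87.7 to 88.8 CPM. The change of Met2 and Met3 against the primaries was 0.23 (SE 0.13, 95% interval -0.05 to 0.50, adjusted p = 0.192). It was called without Met2 rep 1 (0.35, adjusted p = 0.0144) and without that library and Primary3 rep 3 (0.34, adjusted p = 0.0319). Its paralog Esrp1 averaged 185 ± 29.9 CPM in Met2 and Met3 and 129 ± 14.7 CPM in the primaries (SD, n = 6 each), and rose by 0.52 (SE 0.12, adjusted p = 0.00521). Esrp2 lies opposite Nfatc3 and 1810019D21Rik, and whether the counting used strand is not given in the sources used here. Its nearest levels were those of Grhl3 (r = 0.921) and Csta1 (r = 0.887).

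Grhl2 encodes a Grainyhead-like factor that activates Cdh1 and junction genes (ENSMUSG00000022286, chromosome 15, 37233036 to 37363569, plus strand). It stood at 50.7, 56.6 and 50.4 CPM in Met1, at 32.7, 41.2 and 43.5 CPM in Met2 and at 39.3, 42.4 and 45.6 CPM in Met3. Primary2 held 33.1, 41.1 and 43.1 CPM and Primary3 34.9, 32.5 and 27.6 CPM. Met1 was above every other library. Met2 and Met3 differed from the primaries by 0.21 (SE 0.10, 95% interval -0.0044 to 0.43, adjusted p = 0.126), and by 0.29 without Met2 rep 1 (adjusted p = 0.0323). In round 3 the Met3 libraries were above all Primary3 libraries, with a change of 0.42 that missed the threshold (adjusted p = 0.0536). Of all 14925 genes tested, 6621 showed no overlap in that comparison. Grhl2 overlaps the antisense gene Gm16136 with 2644 counts in all. The closest levels were those of Ncstn (r = 0.936) and Smarca4 (r = 0.934).

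**Figure D3:**
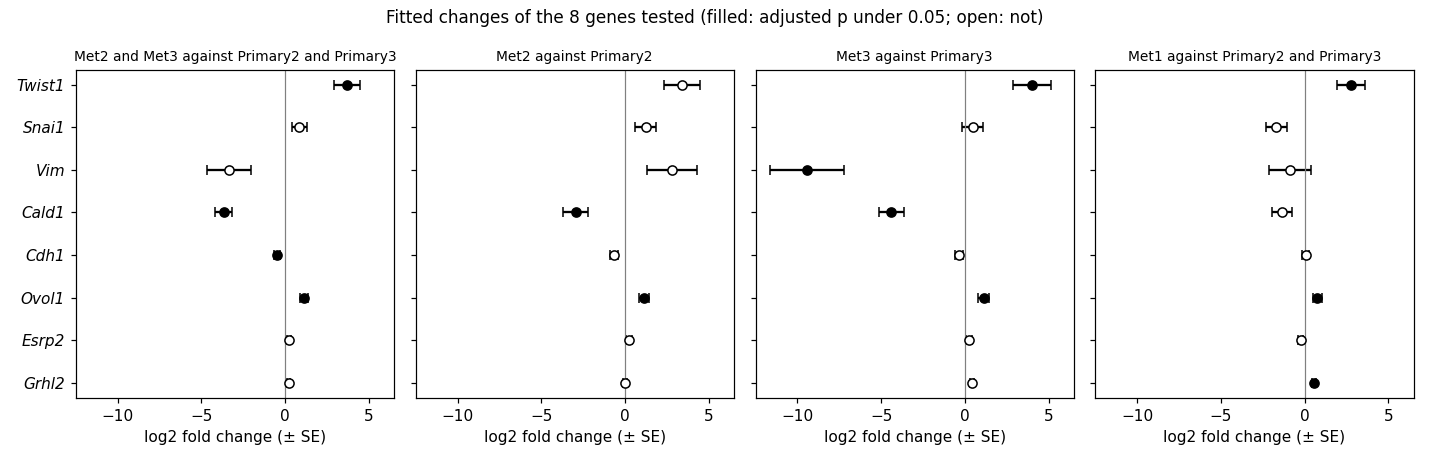
Fitted log2 fold changes of the 8 tested genes with their standard errors in 4 comparisons, filled where the adjusted p was under 0.05. Twist1 and Ovol1 lie right of 0 in all 4 panels and Cald1 left of 0, while Vim lies on opposite sides in round 2 (2.79) and round 3 (-9.45).

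By comparison, 2 of the 8 genes were called in Met2 against Primary2, Cald1 lower and Ovol1 higher, against 11.8% of all genes tested. In Met3 against Primary3 it was 4 of 8, Twist1 and Ovol1 higher and Vim and Cald1 lower, against 19.1% of all genes. The difference between the rounds called 0 of 8 and 0% of all genes with edgeR, where 1817 genes had an unadjusted p under 0.05 and DESeq2 called 224. Vim had the lowest p of the 8 there, with a difference of -12.24 (unadjusted p = 0.000552, adjusted p = 0.261), and DESeq2 called it (adjusted p = 0.000332). Primary3 against Primary2 called 0 of 8 and 0% of all genes, with 1063 genes at an unadjusted p under 0.05 and 43 called by DESeq2, none of them among the 8. Vim (4.99, adjusted p = 0.633) and Cald1 (1.45, adjusted p = 0.70) were above every Primary2 library in all 3 Primary3 libraries. Of all 14925 genes tested, 2498 showed no overlap there, in either direction.

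First-round metastases were set against the 6 primary libraries, and 3 of 8 genes were called, all higher, against 29.6% of all genes. Grhl2 rose by 0.58 (SE 0.12, adjusted p = 0.00449, with means of 52.6 ± 3.49 CPM in Met1, n = 3, and 35.4 ± 5.76 CPM in the primaries, n = 6, as SD), and stayed called under all 14 alternatives. Twist1 rose by 2.74 (SE 0.84, adjusted p = 0.0272). This ended without Met1 rep 1 (1.76, adjusted p = 0.183), Met1 rep 2, Primary2 rep 1, Primary2 rep 3 or Primary3 rep 1 (changes of 2.47 to 3.02, adjusted p = 0.050 to 0.0607), and without Primary3 rep 3 the change was 4.98 (adjusted p = 0.00236). Ovol1 rose by 0.76 (SE 0.26, adjusted p = 0.043). That ended without Met1 rep 2, Met1 rep 3, Primary2 rep 1, Primary2 rep 3 or any 1 of the Primary3 libraries (changes of 0.40 to 0.79, adjusted p = 0.0614 to 0.281). Snai1 was not called in Met1 (-1.71, adjusted p = 0.0546), but was without Primary2 rep 2 (-1.89, adjusted p = 0.0394). Vim and Cald1 were not called, at -0.89 and -1.36 (adjusted p = 0.621 and 0.103).

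Among metastasis organoids, Met2 against Met1 and Met3 against Met1 called the same pair of genes, Snai1 higher and Cald1 lower, against 16.3% and 23.4% of all genes tested. These comparisons share Met1. Snai1 rose by 2.47 in Met2 (SE 0.68, adjusted p = 0.0298) and by 2.64 in Met3 (SE 0.68, adjusted p = 0.0157). Cald1 fell by 2.32 in Met2 (SE 0.71, adjusted p = 0.0438) and by 2.31 in Met3 (SE 0.71, adjusted p = 0.0333). The Snai1 calls ended without Met1 rep 1, Met1 rep 2, or Met2 rep 3 in the one comparison and Met3 rep 1 in the other (changes of 1.92 to 2.54, adjusted p = 0.0513 to 0.115). The Cald1 calls ended without Met1 rep 2, Met1 rep 3, or either rep 2 or rep 3 of the later group (changes of -2.30 to -1.78, adjusted p = 0.0748 to 0.135). Vim was lower in all 3 Met3 libraries than in Met1 but not called (-6.06, adjusted p = 0.0592). In that comparison 6645 of all 14925 genes tested showed no overlap. In Met2 against Met1 the Vim change of 1.19 turned to -4.95 without Met2 rep 1 (adjusted p = 0.033). Esrp2 was called in Met2 against Met1 without that library (0.64, adjusted p = 0.0125). Twist1 was not called in either, with 0.47 in Met3 and 1.51 in Met2 (adjusted p = 0.758 and 0.313). Met3 against Met2 called 0 of 8 and 0.275% of all genes with edgeR, 2157 genes had an unadjusted p under 0.05, and DESeq2 called 588 genes with Vim among them (adjusted p = 0.00196).

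Of the 7 paralogs, 5 were tested. Esrp1 alone was called between Met2 and Met3 and the primaries, against 30.4% of all genes tested. Without Met2 rep 1, 3 of the paralogs were called. Over all genes, leaving out 1 library gave 3655 to 5281 calls, beside 4535 with all kept. Between rounds others moved. Grhl3, a factor of the epidermal barrier, averaged 11.1 ± 4.47 CPM in Met1, 39.0 ± 27.6 CPM in Met2, 34.3 ± 11.2 CPM in Met3, 26.5 ± 4.05 CPM in Primary2 and 25.3 ± 3.39 CPM in Primary3 (SD, n = 3 each). It rose by 1.82 in Met2 and 1.63 in Met3 against Met1 (adjusted p = 0.0215 and 0.0227), and its change in Met1 against the primaries was -1.23 (adjusted p = 0.039). Snai3, a Snai family member, fell in Met3 against Met1 by 1.14 (adjusted p = 0.0396; mean 2.33 ± 0.672 CPM in Met3 against 5.13 ± 1.18 CPM in Met1, SD, n = 3 each). Grhl1 was not called against the primaries (0.44, adjusted p = 0.145).

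Among mesenchymal effectors, 6 of 18 listed genes were lower in Met2 and Met3 than in the primaries and none was higher. Over all genes tested, 16.1% were lower and 14.3% higher. Of the 18, 10 passed the filter on low counts, and 4 of these were not called (DESeq2 also called 6 lower and 0 higher), with a median change of -1.53 beside 0.01 over all genes. Among those of lowest p were Mmp14, a membrane metalloproteinase (-3.75, adjusted p = 0.000494, 0.966 CPM in Met2 and Met3 against 13 CPM in the primaries), Tpm1, a tropomyosin (-0.80, adjusted p = 0.000756, 381 CPM in Met2 and Met3 against 663 CPM in the primaries) and Axl (-5.46, adjusted p = 0.00396, 0.199 CPM in Met2 and Met3 against 5.13 CPM in the primaries). Cdh2 was not called, and its rounds pointed in opposite directions. It averaged 2.32 CPM in Met2 against 0.127 CPM in Primary2 (4.10, adjusted p = 0.163), and 0.0546 CPM in Met3 against 1.67 CPM in Primary3 (-4.77, adjusted p = 0.119). The fitted change of both rounds together averages these log2 values, at -0.34 (adjusted p = 0.866), while the mean CPM was 1.19 in Met2 and Met3 and 0.896 in the primaries. Leaving out Met2 rep 1 gave 9 lower of 11 tested with a median of -3.58, and leaving out both that library and Primary3 rep 3 gave 8 of 11 with a median of -3.12. These fits tested 11 genes rather than 10, so their medians are not of the same genes. Over all genes, 4451 were called without both libraries and 3655 to 5281 with any 1 library left out, beside 4535 with all kept. The median was -2.42 without Met2 rep 3, and -2.27 to -1.65 without each of the other libraries, and -2.60 with only the groups compared. The fibroblast sum of Met2 rep 1 is as given for Vim.

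For the other EMT factors the count called lay near that of genes at large, of which 14.3% were higher and 16.1% lower. Of 12 listed, 7 were tested, 2 were higher and 1 lower, with a median of -0.42. Tcf3 (0.42, adjusted p = 0.00269, 79.6 CPM in Met2 and Met3 against 58.8 CPM in the primaries) and Tcf4 (0.98, adjusted p = 0.0411, 115 CPM in Met2 and Met3 against 52.8 CPM in the primaries) rose, both E proteins that bind E-boxes with Twist1. Foxc2, a forkhead factor, had 0 counts in Met2 and Met3 and 213 in the primaries, so it was at least 64.7-fold lower against a floor of 3 counts over the group (adjusted p = 0.00163), and with it at that bound the median was still -0.42. Sox4 was not called (-1.55, adjusted p = 0.0633). Only 1 of the list was higher without Met2 rep 1, Met3 rep 2, Met3 rep 3 or any 1 of the 6 primary libraries, and 3 were lower without Met2 rep 1 and 2 without Met2 rep 3. The median was -0.27 without Met2 rep 1 and -0.43 without Primary3 rep 3. It was -0.97 to -0.72 without each of the other libraries, where 8 genes were tested, and -1.01 with no filter on low counts, where 11 were. Fits with 1 library left out called 3655 to 5281 of all genes.

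Epithelial regulators other than the named genes were 5 higher and 0 lower of 13 tested, with a median of 0.50. Over all genes tested, 14.3% were higher and 16.1% lower. Foxa1, a forkhead pioneer factor, rose by 0.76 (adjusted p = 0.000258, 106 CPM in Met2 and Met3 against 61.2 CPM in the primaries, with no overlap of libraries), Esrp1 as given above, and Klf5 by 0.65 (adjusted p = 0.0067). Without Met2 rep 1 the list gave 8 higher and 1 lower. Genes that Grhl2 or Ovol factors are known to bind or control were 6 higher and 0 lower of 11 tested. Their median was 0.51, and the shares over all genes are those just given. St14, the protease matriptase, rose by 0.69 (adjusted p = 0.000447), Ap1m2 by 0.51 (adjusted p = 0.001), and Prss8, the protease prostasin, by 0.55 (adjusted p = 0.0439). That count was 3 without Met3 rep 1, Primary2 rep 1, Primary2 rep 3, Primary3 rep 1 or Primary3 rep 3. Over all genes, leaving out 1 library gave 3655 to 5281 calls, so the shares above do not carry over to those fits.

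Krt8, Krt18, Krt19, Epcam and Cdh17 are also among the epithelial markers, whose sum was higher in most metastasis libraries. Adhesion and junction genes were 5 higher and 4 lower of 18 tested, with a median of 0.10. Over all genes tested, 14.3% were higher and 16.1% lower. Krt8, a simple epithelial keratin, rose by 1.60 (adjusted p = 0.0021, 3241 CPM in Met2 and Met3 against 1064 CPM in the primaries) and Dsp, desmoplakin, by 0.82 (adjusted p = 0.00331, 313 CPM in Met2 and Met3 against 176 CPM in the primaries). Ctnnb1, the catenin that binds the tail of E-cadherin, fell by 0.71 with no overlap of libraries (adjusted p = 0.00266, 487 CPM in Met2 and Met3 against 787 CPM in the primaries). Cdh3, P-cadherin, was called lower (adjusted p = 0.0039) from 3 counts in Met2 and Met3 against 54 in the primaries, a ratio of 0.061 (95% counting interval 0.0122 to 0.188). Without Met2 rep 1 the list gave 7 higher and 2 lower, and 2 lower also without Met3 rep 1, Met3 rep 3, Primary2 rep 2, Primary3 rep 2 or Primary3 rep 3. Fits with 1 library left out called 3655 to 5281 of all genes.

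**Figure D4:**
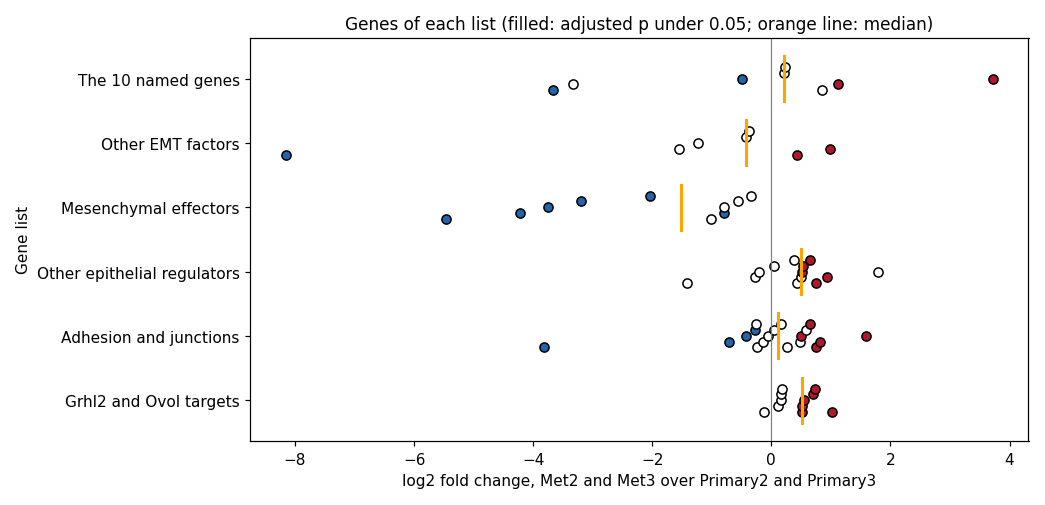
Fitted log2 fold changes of the tested genes of each list between Met2 and Met3 together and Primary2 and Primary3 together, filled where called and with the list's median in orange. The mesenchymal effectors have a median of -1.53 and the targets of Grhl2 and Ovol factors one of 0.51, and the leftmost point is the fitted value of Foxc2, which has no count in Met2 and Met3.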

How the data were processed

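RNA was sequenced after poly(A) selection in a directional preparation, per the labels' protocols, and quantified with Salmon 1.3.0 on mm10, per the submitters' processing notes. The deposited table holds estimated counts per Ensembl gene (54418 genes, 0 values with a fractional part). The authors' step from transcripts to genes, their annotation and any use of strand are not given here. GENCODE M21 (GRCm38), which matched 54166 of the IDs, gave symbols, positions and exon lengths. Each of the 15 columns was matched to a sample by its library name.

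Genes were kept by edgeR's filterByExpr by group (14925 kept, 39493 removed, minimum count 10) and tested with edgeR 4.0.16 in R 4.3.3. One quasi-likelihood fit with TMM factors and 5 group means took all 15 libraries, and the Benjamini-Hochberg adjustment ran over all tested genes of a comparison. Standard errors were taken as the absolute log2 fold change over the root of its F statistic. The scripts were tested on simulated data. Alternatives were DESeq2 1.42.0 and its size factors, no filter on low counts, only the groups compared, the replicate number as a block, and leaving out each library in turn. Leaving out Met2 rep 1 and Primary3 rep 3 together was added after seeing the data.

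The 10 genes and the lists were chosen with earlier results of these data known. Named genes are the 10, their paralogs, up to 4 genes of lowest p from each list in Met2 and Met3 against the primaries, and, for each of the 8 tested, the 2 genes of highest Pearson r of log2(CPM + 0.5) over the 15 libraries among genes whose mean log2 CPM reached 1. Genes known by predicted or clone names were passed over. Some genes that this rule names are not reported here. Intervals and floors based on 3 counts cover counting error only. Sequences of genes without an entry in the RefSeq table, and of Zeb1, are not used here.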

Additional observations from a re-analysis of the deposited data

Results flagged for a closer look

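Among the 6 libraries of Met2 and Met3, Twist1 in Met2 rep 1 stood at 185.5 CPM, and the next highest library held 75.7 CPM. In the same 6 libraries, Vim in Met2 rep 1 stood at 44.33 CPM, against 0.322 CPM in the next highest. Among the 6 libraries of Primary2 and Primary3, Vim in Primary3 rep 3 stood at 159.1 CPM, against 39.7 CPM in the next highest. The gap to the next library, divided by the range of the 6, was 0.785, 0.993 and 0.757 in that order, above Dixon's critical value at 95%. That value flags about 1 in 20 sets drawn from a single normal population. Each side pooled libraries of separate groups as CPM without logs, so the rate here is not known. In all, 18 sides were looked at. Of the 8 genes tested for a difference between rounds 2 and 3, edgeR called none (DESeq2 called Vim), and Zeb1 and Snai2 were not tested.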

How the results depend on the processing

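Between Met2 and Met3 and the primaries, Twist1, Ovol1 and Cald1 kept direction and call in all 18 alternatives, while Cdh1 and Vim did not, as given in the report. Of the results for single genes, 788 kept their side of the threshold, 64 lost a call, 25 gained one, 40 changed sign with no call in either fit and 1 reversed: Vim in Met2 against Met1, at -4.954 without Met2 rep 1 and up to 1.85 without any other library. The cause was not tested. Of all genes, DESeq2 called 224 for the difference between rounds, 2830 for Met2 against Primary2, 588 for Met3 against Met2 and 43 for Primary3 against Primary2. Fitting only the groups compared called 14 for Met2 against Met1, 215 for Met2 against Primary2 and 0 for Met3 against Met2, where no filter on low counts called 85. Of the 8 tested genes, DESeq2 called 1 for the difference between rounds, 4 for Met2 against Met1 and 1 for Met3 against Met2. Over all genes DESeq2 called 3424 for Met2 against Met1. With no filter 1 of the 8 and 1911 of all genes were called for Met2 against Met1. Fitting only the groups compared called 0 of the 8 for Met2 against Met1 and 0 for Met2 against Primary2. For Met3 against Met1 that fit called 4 of the 8 and 3151 of all genes.

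Leaving out 1 library at a time gave these ranges of genes called: 0 to 17 for the difference between rounds, 2115 to 4164 for Met1 against the primaries, 573 to 2501 for Met2 against Met1, 715 to 2144 for Met2 against Primary2, 1988 to 2702 for Met3 against Met1, 0 to 203 for Met3 against Met2, 1372 to 2319 for Met3 against Primary3 and 0 to 2 for Primary3 against Primary2. Of the 8 tested genes, the ranges were 1 to 4 for Met1 against the primaries, 0 to 4 for Met2 against Met1, 0 to 2 for Met2 against Primary2, 0 to 1 for Met3 against Met1 and 1 to 4 for Met3 against Primary3. For Met2 and Met3 against the primaries, the ranges were 3655 to 5281 of all genes and 3 to 6 of the 8.

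Samples with the same replicate number did not deviate together, with correlations of -0.128 to 0.301 over 30 pairs against -0.335 to 0.234 over 60 pairs with other numbers. With the replicate number as a block, 4490 genes were called between Met2 and Met3 and the primaries. Among them were 5 of the 8, including Vim (-3.96, adjusted p = 0.0486). The block called 0 genes for Met3 against Met2. For Met3 against Met1 it called 3325 genes, with 1 of the 8 among them. In Met1 against the primaries the block called Snai1 (-1.69, adjusted p = 0.0142) and not Twist1 (adjusted p = 0.0654) or Ovol1 (adjusted p = 0.0579). It did not call Cald1 in Met2 or Met3 against Met1 (adjusted p = 0.0743 and 0.0613), and called Cdh1 in Met2 against Met1 (-0.70, adjusted p = 0.0348). The targets of Grhl2 and Ovol factors then counted 3 higher. Snai1, Snai2 and Zeb1 lie near the limit of depth, since 3 counts equal 0.137 to 0.22 CPM.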
